A study of Mus musculus with 2 samples.

Results

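A bidirectional promoter is the stretch of DNA between a pair of genes that lie head to head on opposite strands and are transcribed away from each other. Among the 20807 protein-coding genes of GENCODE M21 on the 19 mouse autosomes, 734 divergent pairs had gene starts (annotated 5′ ends) no more than 1 kb apart. These pairs hold 1448 genes, or 6.96% of all, and 20 genes belong to more than 1 pair, so that the pairs occupy 714 separate stretches. Each region ran from one start to the other with 200 bp added on either side, and the median distance between the starts was 128 bp. The reference was the promoters of 18486 unpaired genes, each measured in a window from 328 bp upstream to 200 bp downstream of the start, which is the length of a region with the median distance. A further 873 genes whose 5′ ends overlap those of a divergent neighbour met neither definition and were left out of both classes.

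Open chromatin was measured by DNase-seq, in which DNase I cuts accessible DNA in isolated nuclei and sequencing maps the cuts. The tissue was urinary bladder from 2 mice of the strain B6CASTF1/J, both female and 36 days old. The strain is a first-generation hybrid of the laboratory strain B6 with CAST, which derives from wild mice, and reads were placed on the mm10 reference. The animals form a single group without treatment, mutation or control, with 1 library each, called replicate 1 and replicate 2 here. The labels give them separate biosamples and animal numbers but a shared donor record for the strain. With 2 animals no p-value was computed, and each difference between classes of promoter is given in both animals and set against the spread between them. Regions of 1 animal come from 1 library and are not replicates.

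Each animal has a list of peaks with a height, a signal whose scaling the sources used here do not state, and a list of footprints, short protected stretches inside open DNA. The lists held 117773 and 102671 peaks and 280105 and 247833 footprints in replicates 1 and 2, and the median peak height was 0.845 and 0.739. Heights below 10 were whole multiples of steps of 0.00789 and 0.00849 in 100% of cases, within 0.05 of a step, but the read depth behind them is unknown. Within 1 kb of their starts the urothelial genes Upk1a, Upk2 and Upk3a and the smooth muscle gene Myh11 had peaks in both animals, with heights between 1.48 and 3.62. The smooth muscle genes Acta2, Des and Tagln had lower peaks in both animals, between 0.703 and 1.90, and Krt5, Cldn4, Col1a1 and Pdgfra also had peaks in both. The leukocyte genes Ptprc and Cd3e and the liver gene Alb had none, while the liver gene Apoa2 had a peak of 0.624 in replicate 1 only. The tissue is a mixture of cell types, so that fewer cells with an open site and a less open site in each cell cannot be told apart.

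Divergent gene pairs are a common arrangement in mammalian genomes and often join genes with everyday cellular duties such as DNA repair, replication and mitochondrial function. Their shared promoters are typically rich in CpG dinucleotides and poor in TATA boxes, and polymerase loads at a core promoter for each direction. Factors of the ETS family, NRF1, NF-Y, YY1, SP/KLF and BANP are known to bind such CpG-rich promoters.

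The sequences of 6 of the pairs named in the results show what these regions look like. Each is the middle 300 bp of the region, read from the plus strand of mm10 from RefSeq's GRCm38 assembly, with matches to any of the 13 consensus motifs searched in capitals. Positions are counted from 1 at the left end, and the gene named first reads leftwards. Pdhx/Apip (chr2:103073444-103073743) had one of the highest peaks, and its starts lie at bases 70 and 232. Styxl1/Mdh2 (chr5:135778282-135778581), with starts at 104 and 199, fell most in replicate 2 against replicate 1. Mrps12/Sars2 (chr7:28741756-28742055, starts at 65 and 237) is a textbook pair that is open in the bladder, and so is Atm/Npat (chr9:53536743-53537042), whose starts lie just outside the window at its left and right end. Col4a4/Col4a3 (chr1:82586735-82587034, starts at 115 and 187) is among the lowest open pairs, and Best1/Rab3il1 (chr19:10001501-10001800, starts at 133 and 169) had no peak.
Pdhx/Apip: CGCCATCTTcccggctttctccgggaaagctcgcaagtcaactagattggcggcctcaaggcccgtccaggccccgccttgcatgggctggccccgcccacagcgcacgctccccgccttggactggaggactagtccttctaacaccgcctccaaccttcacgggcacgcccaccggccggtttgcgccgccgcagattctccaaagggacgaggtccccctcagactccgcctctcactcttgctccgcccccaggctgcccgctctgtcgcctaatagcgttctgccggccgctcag
Styxl1/Mdh2: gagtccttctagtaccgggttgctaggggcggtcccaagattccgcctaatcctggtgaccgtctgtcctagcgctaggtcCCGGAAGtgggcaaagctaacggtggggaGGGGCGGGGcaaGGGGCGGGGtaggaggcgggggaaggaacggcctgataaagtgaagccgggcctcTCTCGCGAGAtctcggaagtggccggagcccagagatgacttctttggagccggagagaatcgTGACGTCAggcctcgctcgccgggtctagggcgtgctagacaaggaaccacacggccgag
Mrps12/Sars2: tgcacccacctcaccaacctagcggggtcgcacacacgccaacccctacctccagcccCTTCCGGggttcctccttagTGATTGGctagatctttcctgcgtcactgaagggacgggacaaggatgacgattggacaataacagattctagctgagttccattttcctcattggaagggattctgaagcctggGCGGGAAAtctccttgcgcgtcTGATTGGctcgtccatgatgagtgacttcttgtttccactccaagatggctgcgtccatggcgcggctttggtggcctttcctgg
Atm/Npat: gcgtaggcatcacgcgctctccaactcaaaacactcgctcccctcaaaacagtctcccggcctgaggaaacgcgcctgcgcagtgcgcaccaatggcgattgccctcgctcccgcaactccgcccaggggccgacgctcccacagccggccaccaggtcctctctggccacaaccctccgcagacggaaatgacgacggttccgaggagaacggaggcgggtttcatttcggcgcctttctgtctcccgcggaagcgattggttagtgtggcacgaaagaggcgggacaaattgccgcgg
Col4a4/Col4a3: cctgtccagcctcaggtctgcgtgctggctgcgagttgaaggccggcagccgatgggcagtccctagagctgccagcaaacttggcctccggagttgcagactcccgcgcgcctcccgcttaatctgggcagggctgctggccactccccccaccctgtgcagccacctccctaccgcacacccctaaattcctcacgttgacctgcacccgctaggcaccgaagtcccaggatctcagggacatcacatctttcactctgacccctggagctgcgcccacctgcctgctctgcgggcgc
Best1/Rab3il1: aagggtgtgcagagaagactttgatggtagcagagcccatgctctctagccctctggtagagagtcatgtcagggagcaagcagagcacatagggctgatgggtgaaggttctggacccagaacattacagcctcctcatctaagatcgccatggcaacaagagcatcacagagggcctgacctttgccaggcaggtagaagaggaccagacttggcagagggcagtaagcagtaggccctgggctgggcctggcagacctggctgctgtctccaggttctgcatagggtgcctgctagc
The open windows of Pdhx/Apip, Styxl1/Mdh2, Mrps12/Sars2 and Atm/Npat hold 27, 25, 14 and 32 CpG sites. Col4a4/Col4a3 holds 16 and the closed Best1/Rab3il1 holds 1. In the Styxl1/Mdh2 window both SP/KLF matches, the BANP match and the CREB match were touched by a footprint in both animals, while the ETS match at bases 82 to 88 was touched in neither. In the Mrps12/Sars2 window the E2F match was touched in both animals, the right-hand NF-Y match in replicate 2 only, and the ETS and left-hand NF-Y matches in neither. The 3 windows of Atm/Npat, Col4a4/Col4a3 and Best1/Rab3il1 hold none of the 13 consensus words.

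Nearly all bidirectional promoters were open in the bladder, and their peaks were higher than those of unpaired genes. A peak touched 702 of 734 pair regions in each animal (95.6%), against 10430 (56.4%) and 10307 (55.8%) of the 18486 unpaired windows. Among all autosomal protein-coding genes, 60.2% of promoter windows in replicate 1 and 59.6% in replicate 2 held a peak. Both animals had a peak at 700 pairs (95.4%) and at 53.7% of unpaired promoters, against 57.6% of all autosomal protein-coding genes. The difference in open share was 39.2 percentage points in replicate 1 and 39.9 in replicate 2 (39.6 ± 0.47, SD, n = 2), far outside the spread between the animals. Only 4 pairs (0.545%) were open in a single animal, compared with 4.74% of unpaired promoters.

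The median height of the highest peak in an open pair region was 8.42 in replicate 1 and 5.31 in replicate 2, while open unpaired promoters had medians of 4.31 and 3.22. Pairs were thus 1.95-fold higher in replicate 1 and 1.65-fold higher in replicate 2 (1.802 ± 0.215, SD, n = 2). The fold difference was larger among weak promoters than among strong ones. The lower quartile of height was 5.43 and 3.97 at pairs and 1.64 and 1.42 at unpaired promoters, whereas the upper quartile was 11.6 and 6.85 at pairs and 8.25 and 5.31 at unpaired promoters. Pair regions are on average longer than the windows of unpaired genes, but peaks of pairs covered a similar share of them, 45.7% and 54.5% of the bases of open pair regions against 42.8% and 50.2% of open unpaired windows.

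**Figure D1:**
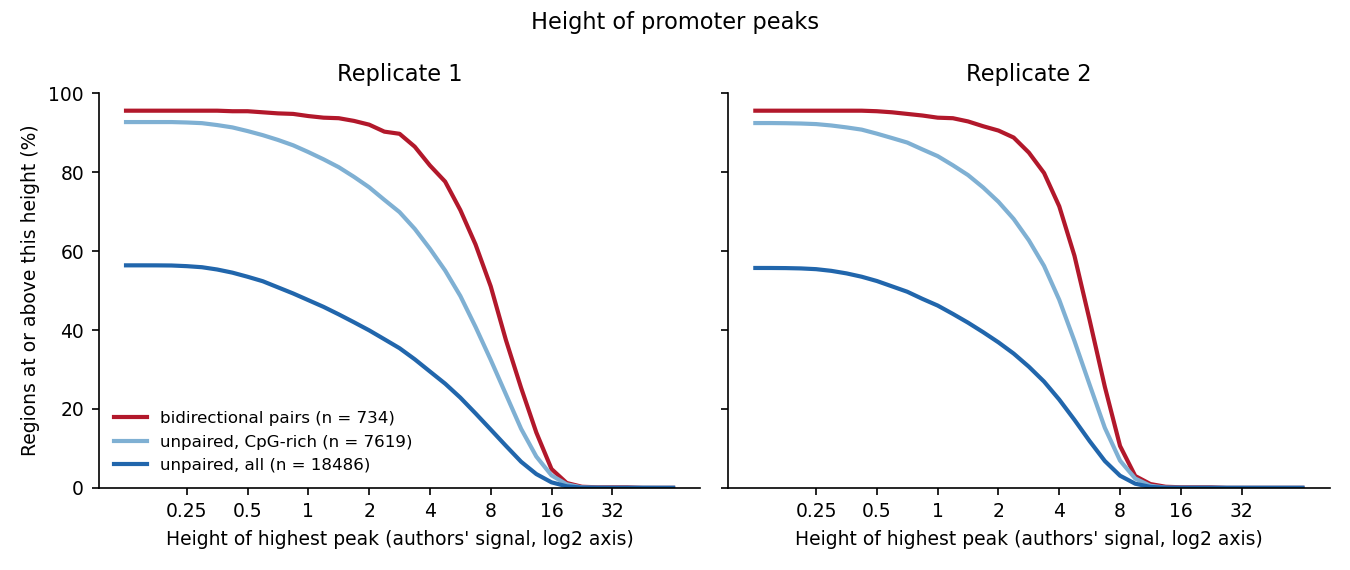
Share of promoter regions (y axis, %) whose highest peak reaches at least a given height (x axis, the authors' signal, log2 axis) in replicate 1 (left) and replicate 2 (right), for bidirectional pairs (red), CpG-rich unpaired promoters (light blue) and all unpaired promoters (dark blue). The curve of the pairs starts at 95.6% in both animals and lies above both curves of unpaired promoters at heights up to 16 in both animals. At a height of 8 it stands at 51.1% in replicate 1 and 10.6% in replicate 2, against 32.4% and 6.90% for CpG-rich unpaired promoters.

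Unpaired promoters with a divergent noncoding gene differed from those without any divergent gene. The 855 unpaired genes with a divergent noncoding gene within 1 kb were open in 82.2% and 82.6% of cases, with median heights of 6.73 and 4.37. The 16852 unpaired genes with no divergent gene of any kind were open in 54.0% and 53.2%, with heights of 4.07 and 3.08. Their CpG content differed too, with a median CpG ratio, defined below, of 0.821 with a divergent noncoding gene and 0.455 without any. Among CpG-rich windows, also defined below, the open shares were closer, with 95.5% and 95.8% against 92.4% and 92.0%. Median heights there were 7.55 and 4.74 against 5.83 and 4.04. The 446 divergent coding pairs whose 5′ ends overlap, which the definition leaves out, were open in 96.2% and 95.1% of cases with heights of 6.82 and 4.70. Pairs with a gap exceeded these in height by 1.23-fold and 1.13-fold, while the difference in open share (0.0125 ± 0.793 percentage points, SD, n = 2) lay within the spread between the animals.

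Much of the difference in open share went with CpG content. The observed over expected CpG ratio of the middle 300 bp had a median of 0.852 in pairs and 0.498 in unpaired promoters, and 595 pairs against 7619 unpaired promoters were CpG-rich, defined as a ratio of at least 0.6 with at least 50% GC. Among CpG-rich promoters, 98.7% of pairs were open in each animal, against 92.8% and 92.5% of unpaired promoters, which reduced the difference to 6.03 ± 0.18 percentage points (SD, n = 2). Height differed less than before as well, with medians of 8.80 and 5.63 at CpG-rich pairs and 5.94 and 4.09 at CpG-rich unpaired promoters, or ratios of 1.48 and 1.38. Among the CpG-poor promoters, 82.7% of 139 pairs were open in each animal, against 30.9% and 29.99% of 10867 unpaired promoters. The median heights of these pairs were 3.31-fold and 2.67-fold higher. In pairs over 300 bp apart, however, the middle 300 bp lies between the starts, whereas the window of an unpaired gene holds its start. Pairs over 500 bp apart had a median CpG ratio of 0.499. At such pairs the CpG classes, and the bins of CpG ratio, therefore do not compare like sequence with unpaired promoters.

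Within each of 5 bins of CpG ratio the pairs were open more often than unpaired promoters in both animals. Below a ratio of 0.2, 29.4% and 23.5% of 17 pairs had a peak, against 10.3% and 9.50% of unpaired promoters. Between 0.4 and 0.6 the shares were 96.7% in both animals for 61 pairs, against 65.3% and 64.2%. At 0.8 and over they were 98.4% for 448 pairs, against 94.3% and 94.2%. Height rose steadily with CpG ratio among unpaired promoters but little among pairs above a ratio of 0.6. Across regions, Spearman's rho between height and CpG ratio was 0.11 and 0.16 over the 702 open pairs of each animal and 0.43 in both animals over the open unpaired promoters. These coefficients describe regions that share a library and a sequence measure.

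**Figure D2:**
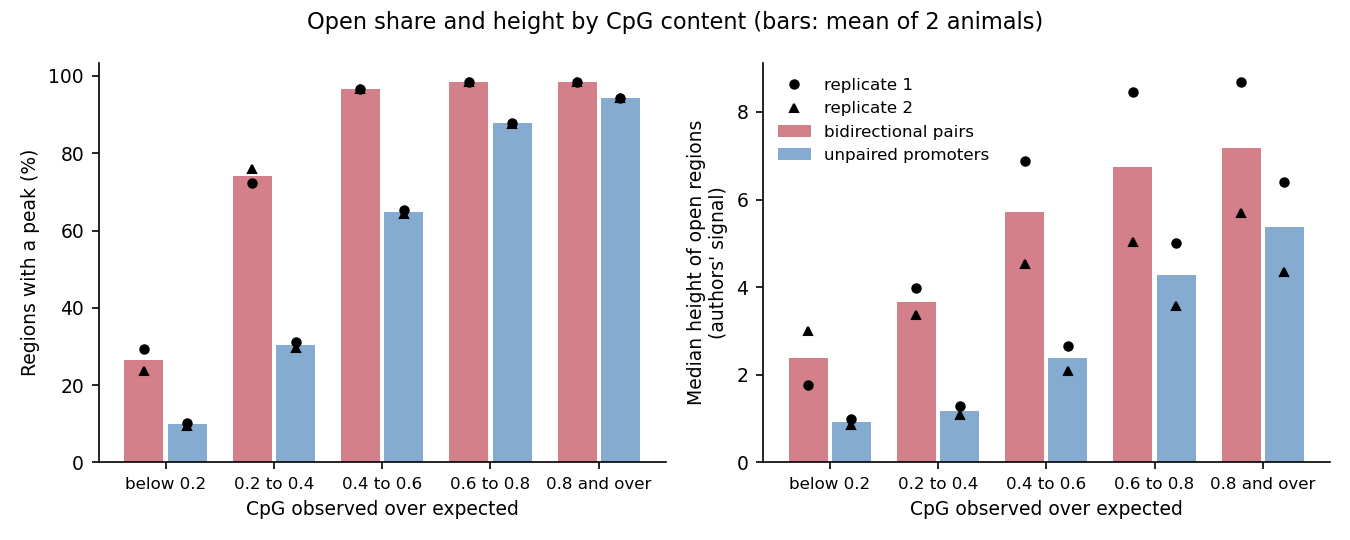
Share of regions with a peak (left, %) and median height of open regions (right, the authors' signal) by observed over expected CpG ratio of the middle 300 bp, with bars for the mean of 2 animals, circles for replicate 1 and triangles for replicate 2, and pairs (red) left of unpaired promoters (blue). In every bin both animals' values for pairs lie above those for unpaired promoters, and the difference in open share is smallest in the bin at 0.8 and over (98.4% against 94.3% and 94.2%).

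The arrangement of the peaks differed with the distance between the starts. The pairs fall into 306 with starts up to 100 bp apart, 200 with starts over 100 and up to 200 bp apart, 96 up to 300 bp, 64 up to 500 bp and 68 up to 1000 bp apart. Exactly 1 peak was found in 77.5% and 77.2% of open pair regions, against 85.6% and 86.0% of open unpaired windows. In pairs up to 100 bp apart this share was 91.2% and 89.5%, and in pairs over 500 bp apart it was 31.1% and 29.5%. The regions become longer with the distance, and the longer a region is the more peaks it can hold. In windows of 1 kb on either side of each start, the share of open windows with exactly 1 peak was 43.9% over both animals. Each gene had its own window there, so that both genes of a pair were counted, in overlapping sequence.

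The highest peak covered both starts in 402 (57.3%) and 440 (62.7%) of the open pair regions. It did so in 86.8% and 88.8% of pairs up to 100 bp apart, 60.8% and 68.9% over 100 and up to 200 bp, 23.7% and 34.4% over 200 and up to 300 bp, and in 0 and 1 of 61 pairs over 500 bp apart. Over all open pair regions, the median width of the highest peak was 220 bp in replicate 1 and 280 bp in replicate 2. Wider peaks covered both starts in 8 and 14 of the 63 open pairs over 300 and up to 500 bp apart. In the widest pairs the highest peak covered a single start in 85.2% and 80.3%. Around the middle of the region, peak coverage formed 1 summit in pairs up to 300 bp apart, reaching 90.5% and 90.2% of the regions at the middle base for the closest pairs. In the 132 pairs over 300 bp apart coverage dipped at the middle, to 28.03% and 46.2%, between shoulders at 200 bp on either side with 46.2% and 45.5% in replicate 1 and 56.1% and 50.8% in replicate 2.

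**Figure D3:**
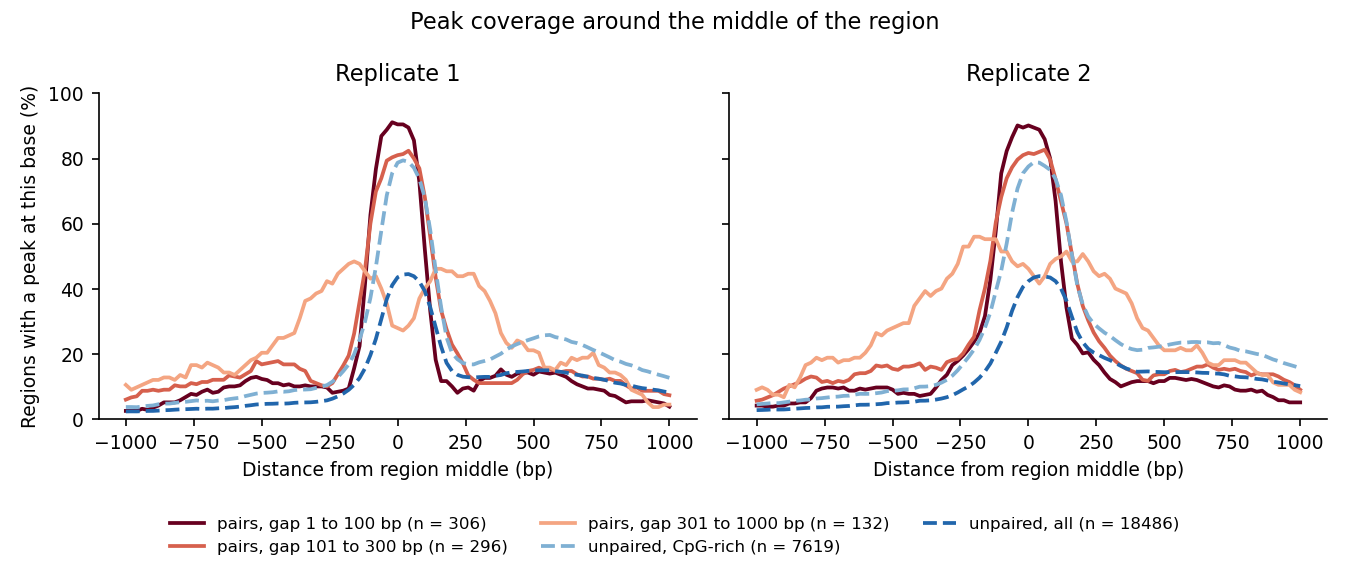
Share of regions with a peak at each base (y axis, %) by distance from the middle of the region (x axis, bp) in replicate 1 (left) and replicate 2 (right), for pairs in 3 classes of distance between the starts (solid red lines) and for unpaired promoters (dashed blue lines, start to the right of the middle, gene reading rightwards). The closest pairs have 1 narrow summit near 90%, and the pairs over 300 bp apart have 2 shoulders with a dip between them that is deeper in replicate 1.

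A total of 158 pair regions in replicate 1 and 160 in replicate 2 held at least 2 peaks. The second peak had a median of 0.556 and 0.704 of the height of the first, and the middles of the highest pair of peaks lay 385 and 410 bp apart at the median. Mcm4/Prkdc, genes of the replicative helicase and of the DNA-dependent protein kinase that lie 466 bp apart, had 2 peaks in both animals with a highest peak of 14.0 and 7.94.

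**Figure D4:**
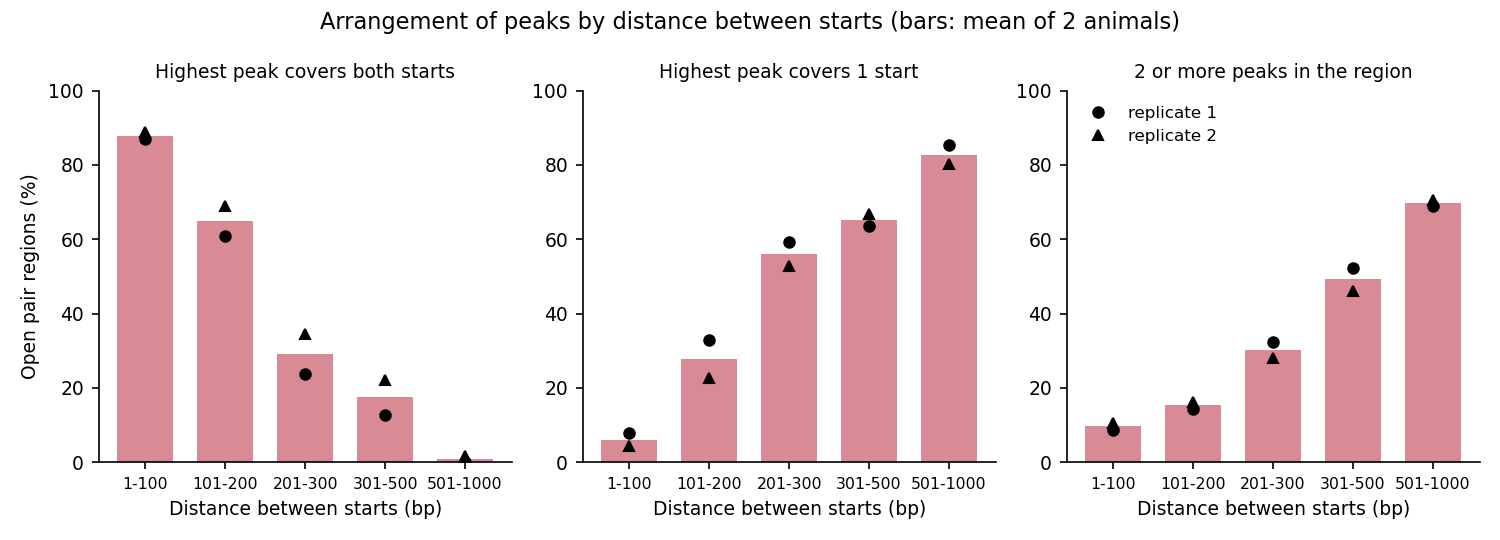
Open pair regions (y axis, %) whose highest peak covers both starts (left), covers 1 start (middle) or that hold 2 or more peaks (right), by distance between the starts (x axis, bp), with bars for the mean of 2 animals, circles for replicate 1 and triangles for replicate 2. Both starts are covered in 86.8% and 88.8% of the closest pairs and in 0% and 1.64% of the widest, and the other shares run the opposite way.

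Open chromatin of pairs held more footprints per region than that of unpaired promoters. Open pair regions held 5.14 footprints in replicate 1 and 5.89 in replicate 2 on average, against 3.72 and 4.13 in open unpaired windows. Per kb of peak sequence the densities were 19.1 and 18.3 in pairs and 16.4 and 15.6 in unpaired promoters, a difference of 2.67 ± 0.083 (SD, n = 2). At matched height the difference was smaller. Its direction varied below a height of 4, and between 4 and 16 pairs were level with or below unpaired promoters in both animals. Between heights of 1 and 2, pairs had 12.98 and 11.6 footprints per kb, against 12.3 and 11.4 in unpaired promoters, and between 2 and 4 they had 17.6 and 15.995 against 16.7 and 16.5. Between heights of 4 and 8, pairs had 19.1 and 19.6 footprints per kb, against 19.4 and 19.8 in unpaired promoters, and between 8 and 16 they had 20.1 and 19.5 against 20.1 and 20.7. At 16 and over in replicate 1, 35 pairs had 18.7, against 20.1 in 258 unpaired promoters, and replicate 2 held 1 pair there. Below a height of 1, with 10 and 13 pairs, the densities were 5.55 and 4.68 in pairs and 7.32 and 6.75 in unpaired promoters. In the middle 300 bp of the regions, footprints took up 34.6% and 30.3% of the peak bases of pairs and 27.6% and 24.1% of those of unpaired promoters.

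The footprints of pairs were densest in the 50 bp just upstream of each start, with 22.5 and 22.2 per kb of peak for genes in pairs, against 19.3 and 19.2 for unpaired genes and 20.6 and 20.8 for CpG-rich unpaired genes. A footprint between closely spaced starts counts for both genes here. Of the footprints in pair regions, 71.1% of those in replicate 1 and 69.4% of those in replicate 2 were overlapped by a footprint of the other animal. For unpaired promoters these shares were 64.9% and 64.2%, and for CpG-rich unpaired promoters 67.8% and 66.3%. Footprints were also denser in pairs, and how much overlap their density alone gives was not tested. The regions with the most footprints were Fiz1/Gm44973 (12 and 16), Srgap2/Fam72a (13 and 15), Tshz1/Zadh2 (13 and 13), Cbx5/Hnrnpa1 (11 and 14) and Lamtor2/Ubqln4 (13 and 12), all with starts over 300 bp apart. Cbx5 encodes the heterochromatin protein HP1 alpha and Hnrnpa1 an RNA-binding splicing factor.

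Consensus words of several factors were more common in the middle 300 bp of pairs. In most pairs this window holds the starts of both genes, whereas the window of an unpaired gene is placed around its own start only. The shares are per window and not per start. Whether the words were more common per start was not tested. The ETS word CCGGAAG, searched on both strands as all words were, occurred in 28.3% of pairs, against 9.73% of unpaired promoters. Restricted to CpG-rich windows it occurred in 32.8% of pairs and 18.05% of unpaired promoters. The NF-Y word CCAATCA occurred in 15.8% of pairs and 7.84% of unpaired promoters (14.8% and 9.66% among CpG-rich windows). The BANP word, a palindrome around CGCG, was rare but showed the second-largest ratio in CpG-rich windows, 2.69% of pairs against 1.10%, after the RFX word, which was found in 6 such pairs (1.01%) against 0.289%. NRF1 (CGCATGCG), YY1 (AANATGGCG), ZNF143, USF (CACGTGAC), CREB (TGACGTCA) and E2F (TTTCCCGC) were each found in a larger share of pairs than of unpaired promoters, among all windows and among CpG-rich ones.

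Other words did not follow this order. The SP/KLF word GGGGCGGGG was found in 20.7% of pairs and 14.4% of unpaired promoters among all windows, but among CpG-rich windows it was less common in pairs, with 24.2% against 28.7%. The AP-1 word TGANTCA was found in 3.41% of pairs and 7.03% of unpaired promoters, and the CTCF word in 2 pairs (0.272%) and 0.465% of unpaired promoters. A TATAAA word 20 to 40 bp upstream preceded 3 of the 1468 starts in pairs (0.204%), of which 1 belonged to a histone pair, against 2.76% of unpaired starts and 0.971% of unpaired starts in CpG-rich windows. The ETS share was highest in pairs up to 100 bp apart (37.3%) and lowest in pairs over 500 bp apart (5.88%), where the window at the middle no longer reaches the starts. The NF-Y share was highest over 200 and up to 300 bp, with 30.2%.

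**Figure D5:**
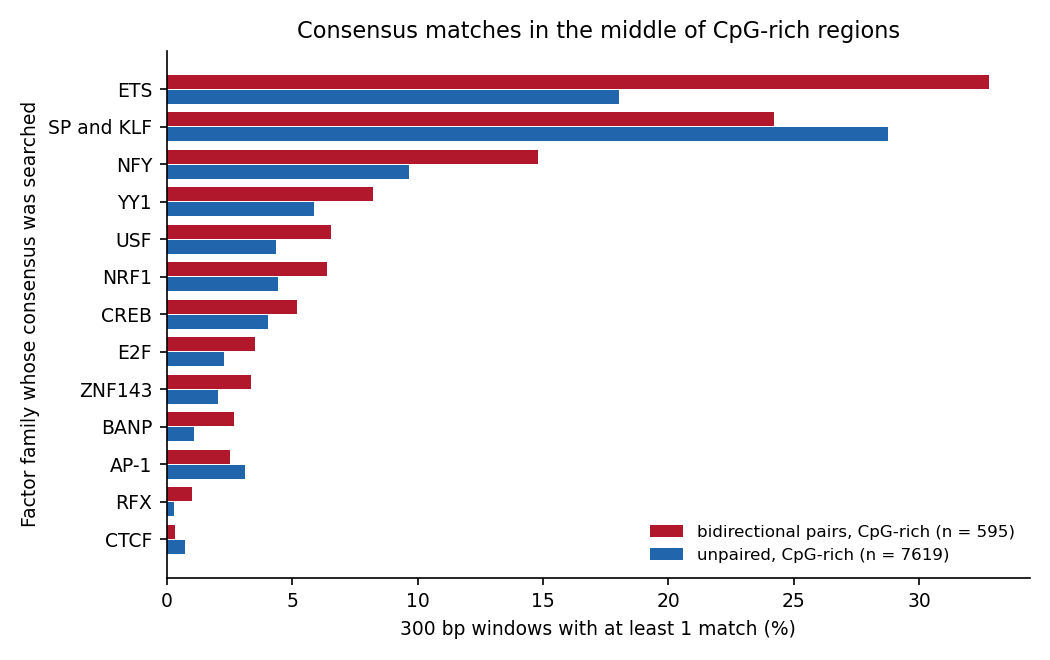
Share of CpG-rich 300 bp windows with at least 1 match (x axis, %) for each of 13 consensus words, named by the factor family (y axis), in bidirectional pairs (red, above) and unpaired promoters (blue, below). The ETS bar of the pairs reaches 32.8% against 18.05%, and SP/KLF, AP-1 and CTCF are the words with a shorter bar for pairs than for unpaired promoters.

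Matches inside peaks of pairs were often touched by a footprint, to a degree that differed between words. Footprints took up more of the peak bases in these windows in pairs (34.6% and 30.3%) than in unpaired promoters (27.6% and 24.1%). Whether a higher share of touched matches in pairs goes beyond this difference was not tested for any word. Of the NRF1 matches 92.5% and 94.9% were touched in pairs, against 94.1% and 92.1% in unpaired promoters. For CREB the shares were 96.97% and 96.7% in pairs and 90.8% and 90% in unpaired promoters, and for SP/KLF 91.9% and 90.8% in pairs and 83.2% and 79.4% in unpaired promoters. For ETS the shares were 69.7% and 65.2% in pairs and 60.4% and 55.1% in unpaired promoters, and for NF-Y 51.3% and 52.6% in pairs and 46.5% and 50.6% in unpaired promoters. USF and E2F matches were touched less often in pairs. The shares were 69.0% and 60.5% against 69.8% and 69.7% for USF. For E2F, with 14 and 13 matches in peaks of pairs, they were 35.7% and 38.5% against 49.6% and 39.0%. AP-1 matches, 17 in peaks of pairs in each animal, were touched in 58.8% and 41.2%, against 27.2% and 22.8% in unpaired promoters. Pairs with an NF-Y word had median heights of 9.91 and 6.00, against 8.09 and 5.18 for those without. Pairs with an ETS word had 8.14 and 5.14, slightly below the 8.58 and 5.40 of those without. Of the 734 pairs, 237 held none of the 13 words, and their median heights were 7.27 and 5.01, against 8.80 and 5.42 for the 167 pairs with 2 different words.

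The members were spread unevenly over gene classes, which were assigned by the start of the gene symbol and so include a few other genes, such as the kinase gene Rps6kb1 among the ribosomal proteins. Replication-dependent histone genes were the class with the largest share in pairs, 27 of 71 (38.03%), followed by DNA repair with 18 of 61 (29.5%) and replication and polymerase genes with 20 of 77 (26.0%). Mitochondrial ribosomal proteins had 18 of 78 (23.1%) and the respiratory chain 23 of 104 (22.1%), while 6.96% of all autosomal coding genes were in pairs. In contrast, 1 of 1457 olfactory and vomeronasal receptor genes, 0 of 53 keratin genes and 0 of 39 Hox genes were in a pair. These shares depend on the annotation and the distance limit and not on the bladder.

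All 20 pairs with a replication or polymerase gene and all 18 with a mitochondrial ribosomal gene were open in both animals, close to the 95.4% of all pairs. Their median heights were 8.96 and 5.71 for replication and polymerase genes and 7.85 and 5.98 for mitochondrial ribosomal genes. Unpaired replication and polymerase genes were open in both animals in 48 of 49 cases (98.0%), with heights of 8.20 and 5.41. Unpaired mitochondrial ribosomal genes were open in both animals in 40 of 45 cases (88.9%), with heights of 4.78 and 3.81. The highest class medians, 12.5 and 7.41, were those of the 10 pairs with a cytosolic ribosomal protein gene, 9 of which were open. Unpaired ribosomal protein genes had 8.65 and 5.55. DNA repair pairs were open in 18 of 19 cases with heights of 8.42 and 5.68. They include Brca1/Nbr1, Palb2/Dctn5 and Atm/Npat, in which Atm is the kinase that signals double-strand breaks and Npat a coactivator of histone transcription. Atm/Npat had a single peak of 15.9 and 8.09 that covered both starts 307 bp apart, with 8 and 9 footprints.

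Histone pairs, which join genes for the core histones of the nucleosome such as H2A and H2B, were lower than other pairs. Of the 14 regions with a histone gene, 13 join 2 histone genes. In both animals 11 of the 14 were open, against 95.4% of all pairs. Median heights were 3.04 and 2.25 over the open histone regions, against 8.42 and 5.31 over all open pairs. Unpaired histone genes had 3.45 and 2.70 and were open in both animals in 38 of 44 cases. The highest histone pair was Hist2h2ac/Hist2h2be with 4.50 and 3.20, and the lowest open one Hist1h2ak/Hist1h2bn with 1.17 and 1.24. Hist1h2bq/Hist1h2ao, Hist1h2ap/Hist1h2br and Hist1h2ba/Hist1h2aa had no peak. The regions of Hist1h2bq/Hist1h2ao and Hist1h2ap/Hist1h2br each have 1 further copy in the genome at 100% identity and their values are therefore uncertain.

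Of 13 textbook divergent pairs, 4 met the definition, and the other 9 have overlapping 5′ ends in this annotation. Hspd1/Hspe1, the mitochondrial chaperonin and its co-chaperonin, whose annotated starts overlap by 112 bp, had a peak of 15.03 and 8.82. Mrps12/Sars2, a mitochondrial ribosomal protein and the mitochondrial seryl-tRNA synthetase, had 7.24 and 6.94, and its highest peak covered the Sars2 start but not the Mrps12 start in both animals. Col4a4/Col4a3, chains of the basement membrane collagen that is prominent in kidney and inner ear, had 0.860 and 0.722 with 4 and 5 footprints, which puts it among the 8 lowest open pairs. Col4a1/Col4a2, the widespread chains of the same collagen and an overlapping pair, had 2.55 and 2.17.

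The highest peak of all pairs was at Hjurp/Trpm8 (chromosome 1, starts 88277633 and 88277661), with 45.1 in replicate 1 and 26.4 in replicate 2. Hjurp is the chaperone of the centromeric histone CENP-A and Trpm8 a cold-sensing ion channel, and no second copy of the region was found at 97% identity or more. The next, Pdhx/Apip, had 23.6 and 11.97 in a single peak over both starts. Pdhx is a component of the pyruvate dehydrogenase complex and Apip an enzyme of methionine salvage. Fbh1/Ankrd16, Dnajb4/Fubp1, Fam53a/Gm9903, Aamp/Pnkd and Nfya/Oard1 were also among the 8 highest, with heights of 18.4 to 21.1 in replicate 1 and 9.10 to 13.9 in replicate 2. All 7 named here were CpG-rich with 1 peak in each animal.

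The 8 lowest pairs open in both animals had heights from 0.379 to 0.892 in replicate 1 and from 0.476 to 0.832 in replicate 2. Ifit1bl2/Ifit1, interferon-induced genes, came lowest with 0.379 and 0.476, followed by Duox2/Duoxa2, a hydrogen peroxide producing oxidase and its maturation factor, with 0.561 and 0.552. Sox6/1110004F10Rik, Fbxo44/Fbxo2, Pinlyp/Xrcc1, Tssk3/Fam229a and Grik5/Zfp574 were also among them. In 7 of the 8, Duox2/Duoxa2 being the exception, the middle window was CpG-poor. The highest peak covered neither start at Duox2/Duoxa2, Pinlyp/Xrcc1 and Grik5/Zfp574 in either animal.

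In 30 pairs neither animal had a peak, and 28 of these had no base at a false discovery rate of 0.05 or below in either animal. Of the 30, 23 were CpG-poor, and their median CpG ratio was 0.252. Among the 30, Pecam1/Milr1 joins an endothelial adhesion molecule and a mast cell receptor, Kirrel2/Nphs1 includes nephrin of the kidney filter, Smyd1/Cd8b1 a muscle methyltransferase and a T cell coreceptor, and Best1/Rab3il1 a chloride channel of the retinal pigment epithelium. These pairs were picked from the 30 and do not stand for all of them. Slc27a5/Trim28, Dgcr2/Tssk2, Ccnt1/4930415O20Rik, Nt5c3b/Klhl10 and Ndufa5/Asb15, with a respiratory chain gene, were closed too. The region is built on the outermost annotated start of each gene. In 16 of the 30 pairs at least 1 gene had another annotated start with a peak within 200 bp in both animals. In 0 of the 30 did both genes have one. Aspa/Gm49340 and Aspa/Spata22 are both counted through Aspa. The same share was not computed for open pairs or for all genes, so whether 16 is many was not tested. Rps2, of the small ribosomal subunit, had 5 of 7 other starts open, Rnf14 had 15 of 16, Pus3 had 2 of 2, Rad51c had 3 of 3 and Rab3il1 had 3 of 6. Pecam1 had 0 of 7, and Nphs1 had 0 of 4.

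Each of the 4 pairs open in a single animal had its peak below the median of open pairs. Hps5/Gtf2h1 reached 4.71 in replicate 1 and had no peak in replicate 2, although all 440 bp of the region had a false discovery rate of 0.05 or below in both animals. Sncg/Mmrn2 had 0.703 in replicate 1 only, and Sirt1/Dnajc12 had 1.71 and Nr2e1/Ostm1 0.612 in replicate 2 only. At Sirt1/Dnajc12, 346 bp in replicate 1 and 536 bp in replicate 2 had a false discovery rate of 0.05 or below, so that signal was present in both.

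Between the animals, heights were lower in replicate 2 than in replicate 1 at most promoters, and the scaling of the heights is not known to be common to both. At the 700 pairs open in both animals the log2 ratio of replicate 2 over replicate 1 had a median of -0.64 (SD over pairs 0.34), and at unpaired promoters -0.53. Replicate 2 was lower at 655 pairs (93.6%), against 88.5% of unpaired promoters and 88.8% of all promoters open in both animals. Heights differed by more than 2-fold at 72 pairs (10.3%), against 5.90% of unpaired promoters and 6.43% of all. The ratio also differed with height. Between mean heights of 4 and 8 its median was -0.60 at pairs and -0.62 at unpaired promoters, and between 8 and 16 it was -0.82 and -0.80. At mean heights of 1 to 2, with 21 pairs, it was -0.47 at pairs and -0.27 at unpaired promoters. Differences over 2-fold were less frequent at pairs between mean heights of 2 and 4, with 1.05% of pairs against 3.49% of unpaired promoters, and more frequent between 4 and 16, with 7.65% of pairs against 4.58% of unpaired promoters between 4 and 8, and 18.9% against 13.7% between 8 and 16. At 16 and over they were found at 0 of 5 pairs, against 9 of 27 unpaired promoters. Ranks were kept, with a Spearman coefficient between animals of 0.91 over pairs and 0.97 over unpaired promoters.

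The pairs with the lowest log2 ratio were Styxl1/Mdh2 (6.97 in replicate 2 and 16.8 in replicate 1, log2 ratio -1.27), Asb7/Lins1 (-1.26), Atp6v1d/Eif2s1 (-1.26), Mrpl41/Pnpla7 (-1.25) and Thap2/Zfc3h1 (-1.23). Mdh2 is the mitochondrial malate dehydrogenase and Eif2s1 the alpha subunit of initiation factor eIF2. The highest ratio was at P3h4/Fkbp10, endoplasmic reticulum proteins that help collagen mature, with 3.797 in replicate 2 and 2.25 in replicate 1 (0.75). Timm9/2700049A03Rik (0.63), Bola1/Hist2h2ab (0.46) and Dpm1/Mocs3 (0.45) were also among the 5 highest. With 1 library per animal such a difference at a single pair has no replicate check.

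Near the distance limit, Btf3l4/Txndc12 (987 bp), Asphd1/Sez6l2 (981 bp) and Zfyve26/Rad51b (978 bp) were the widest pairs included, with heights of 5.16 and 3.05, 3.87 and 2.84, and 8.12 and 4.52. The closest pairs left out were Gpr108/Trip10 (1009 bp), Sgsm2/Tsr1 (1011 bp) and Dirc2/Hspbap1 (1019 bp), with 12.5 and 9.43, 6.42 and 3.52, and 6.87 and 4.31.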

How the data were processed

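Per the labels, positions are on mm10. Per the deposited description, the authors called 2 lists of peaks, 1 of footprints and 1 of stretches with a false discovery rate in each animal on its own. Peak height is a signal deposited by the authors. How it was scaled, and which aligner and peak caller were used, is not given in the sources used here. As p-value columns the authors deposited the false discovery rate of the cut rate, up to 0.05, and a constant 0.01 for footprints. The longer peak list of each animal was used.

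Genes came from GENCODE M21 and sequence from GRCm38. Each gene was taken at its outermost annotated 5′ end, and genes read mostly from an inner start may therefore look closed. A region was open when a peak shared at least 1 bp with it, and its height was that of its highest peak. Footprints were counted by midpoint within peak sequence of the region. For the overlap of footprints between animals, every footprint touching a region was taken, inside or outside peaks. Unpaired genes had no divergent coding gene start within 1 kb. Shares and medians were computed per animal and compared without a test, as 2 animals of 1 group allow no p-value below 0.5 in a sign test. Near-identical copies were sought with blastn 2.17.0 (97% identity over 90% of the region). Python 3.11.15, numpy 2.4.6, pandas 2.3.3, pysam 0.24.0, samtools 1.23.1 and matplotlib 3.10.9 were used, and the pairing and measuring steps were tested on simulated data.

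The pairs, the gene classes and the consensus words were chosen with earlier results of these data known. Named pairs were 13 textbook pairs, the 8 highest, the 8 lowest open in both animals, the 8 closed with the smallest distance, those open in 1 animal, the 5 with the largest and the 5 with the smallest log2 ratio, the 5 with the most footprints, and the 3 nearest to 1 kb on either side. Some pairs that meet these rules are not reported here. Other pairs named within a gene class or among closed pairs were chosen after their values were seen.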

Additional observations from a re-analysis of the deposited data

How the results depend on the processing

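Across 12 other settings for 8 results, 58 of 96 values stayed within a set limit, 38 moved beyond it and 0 changed direction. Some of these could not move. Averaging unpaired windows over the gaps, or taking unpaired genes without any divergent gene, leaves every result measured on pairs alone unchanged by construction. The limit was the SD between the animals, which is 0 for the open share of pairs. For the share open in both animals it was 1.5-fold and for the log2 ratio between animals 0.1. A share of 95.4% cannot rise 1.5-fold, so that limit could be passed only by a fall. The setting with 1 kb on either side of each start measured 1 window per gene. Its values are over genes and not over pair regions, and both windows of a pair overlap. With the shorter peak lists, the higher 50% of peaks, the peak midpoint inside the region, starts up to 500 bp apart, no padding, 500 bp padding, 1 kb on either side of each start, CpG-rich windows only, and without predicted or readthrough models, the open share of pairs was 95.03%, 94.7%, 94.3%, 96.2%, 92.4%, 96.1%, 96.4%, 98.7% and 96.2%. The difference from unpaired promoters was 43.9, 45.3, 41.9, 40.2, 43.4, 37.0, 34.9, 6.03 and 37.0 percentage points in the same order, and 42.0 against unpaired genes without any divergent gene. The share of open regions with exactly 1 peak was 78.7%, 78.9%, 86.4%, 81.8%, 87.9%, 54.99%, 43.9%, 82.5% and 76.7% in that order. Footprints per kb were 19.3 with starts up to 500 bp apart, 20.4 without padding, 16.5 with 500 bp padding, 14.6 with 1 kb on either side and 19.6 in CpG-rich windows. The height ratio of 1.802 became 1.54 with the higher 50% of peaks and 1.43 in CpG-rich windows. Counting overlapping pairs as well, a setting chosen after seeing the data, gave 95.6% open, 69.7% with 1 peak and 17.4 footprints per kb. The cause of these shifts was not tested beyond what the longer or shorter regions impose.

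Leaving out 1 animal left the other's own values, with an open share of 95.6% in either case, a difference of 39.2 to 39.9 percentage points, a height ratio of 1.65 to 1.95, a median height of 5.31 to 8.42, 77.2% to 77.5% of regions with exactly 1 peak and 18.3 to 19.1 footprints per kb. No paired analysis was possible because there is 1 group only. Depth is unknown and limits what a region without a peak can show.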

Other observations

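The X chromosome was not part of the autosomal set. By the same definition it holds 20 divergent coding pairs, of which 14 (70.0%) had a peak in both animals and 6 in neither. Among autosomal pairs 95.4% had a peak in both animals. No share or height is given here for unpaired X-linked promoters, so a difference particular to pairs was not tested. The open pairs Cmc4/Brcc3 and Mtcp1/Brcc3 share the Brcc3 start and had the same heights of 4.03 and 2.998, so that these counts are not all of separate promoters. Median heights of the open pairs were 4.56 in replicate 1 and 2.95 in replicate 2, lower than the 8.42 and 5.31 of autosomal pairs, and 14 of 14 were lower in replicate 2 than in replicate 1, close to the 93.6% of autosomal pairs. The highest was Fam90a1b/Apoo with 8.72 and 6.09. Ribc1/Smc1a, with the cohesin subunit Smc1a, had 6.17 and 2.998, and Gla/Hnrnph2, with the lysosomal alpha-galactosidase, had 4.26 and 3.31. The pairs without a peak were Asb12/Pfn5, Gm4779/8030474K03Rik, Gm9112/Dmrtc1b, Dmrtc1a/1700011M02Rik, Trpc5/Rtl4 and Ptchd1/Gm15155. Both animals are female.

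The share of coding genes that sit in a pair ranged over the autosomes from 3.90% on chromosome 18 (10 pairs) to 9.71% on chromosome 8 (52 pairs). On chromosomes 3, 4, 5, 8 and 12 every pair (26, 47, 58, 52 and 31 pairs) was open in both animals, close to the 95.4% of all pairs.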
